A study of Mus musculus with 4 samples.

Results

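The CCN genes Ccn1 to Ccn6 encode a family of 6 secreted matricellular proteins, and the sites described here are the peaks of TEAD1 chromatin immunoprecipitation with sequencing (ChIP-seq) around these genes. A peak belonged to a gene when its summit, the position of highest signal, lay in the annotated span of the gene or within 50 kb of either end of it. This rule gave 31 of the 21285 peaks of one deposited list and 32 of the 21218 peaks of the other. The cells were cardiac fibroblasts of neonatal mice in 2 states, an overexpression negative control (OE-NC) and TEAD1 overexpression (OE-TEAD1). Each state gave 1 ChIP library and 1 input library, the chromatin set aside before immunoprecipitation, so that 4 libraries stood behind the data and there were no replicates. The sources used here name neither the vector, the TEAD1 isoform and the antibody nor the age in days and the number of mice. The 2 peak lists, each called against input, carry no label that ties them to OE-NC or OE-TEAD1. Below, list 1 and list 2 stand for them, and nothing is said of what overexpression did. Peak positions hold no expression levels, so the labelled cell type was not checked against marker genes.

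CCN proteins share a modular build, with an insulin-like growth factor binding domain, a von Willebrand factor type C repeat and a thrombospondin repeat, followed in all members but Ccn5 by a cysteine-rich C-terminal domain. They bind integrins, proteoglycans and growth factors in the matrix around the cell. Ccn1 (Cyr61) and Ccn2 (connective tissue growth factor) are textbook targets of the coactivators YAP and TAZ, which reach DNA through TEAD factors, and Ccn2 is a widely used marker of fibrosis. Ccn3 (Nov) is known to oppose Ccn2 in several settings, Ccn4 and Ccn5 (Wisp1 and Wisp2) were found as genes induced by Wnt signalling, and Ccn6 (Wisp3) is linked to cartilage disease in people.

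The sequence at the strongest CCN site and those before the start sites of Ccn1 and Ccn6 are given first. These are single examples of a strong peak, a weak peak and no peak. They are RefSeq sequences of GRCm38.p6 and cover the 250 bases before a transcription start, written 5′ to 3′ on the minus strand, which is the strand of all 3 genes. Capitals mark the TEAD letters GGAATG, or CATTCC where they lie on the other strand, and the AP-1 letters TGANTCA. Gm40164 is a long noncoding RNA gene below Ccn1, and its sequence lies at chr3:145632974-145633223. That of Ccn1 lies at chr3:145649986-145650235 and that of Ccn6 at chr10:39163795-39164044. The Ccn6 start used, 39163794, lies inside the annotated span of the gene, whose upper end is 39174376.
Gm40164: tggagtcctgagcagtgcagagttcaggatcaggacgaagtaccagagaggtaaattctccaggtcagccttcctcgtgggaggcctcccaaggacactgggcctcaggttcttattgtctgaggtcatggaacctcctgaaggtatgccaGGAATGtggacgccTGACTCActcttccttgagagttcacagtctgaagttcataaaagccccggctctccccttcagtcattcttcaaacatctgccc
Ccn1: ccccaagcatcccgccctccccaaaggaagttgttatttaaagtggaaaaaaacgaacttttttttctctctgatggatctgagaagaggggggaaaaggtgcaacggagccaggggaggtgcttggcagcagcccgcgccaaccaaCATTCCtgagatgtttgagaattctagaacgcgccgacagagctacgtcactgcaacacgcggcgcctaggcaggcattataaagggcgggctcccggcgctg
Ccn6: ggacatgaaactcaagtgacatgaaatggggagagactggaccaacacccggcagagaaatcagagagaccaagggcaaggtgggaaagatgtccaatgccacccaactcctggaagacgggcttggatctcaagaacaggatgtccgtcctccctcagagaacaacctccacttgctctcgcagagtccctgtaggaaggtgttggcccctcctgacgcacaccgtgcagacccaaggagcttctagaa

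The Gm40164 sequence held the TEAD letters once and the AP-1 letters once, with 8 bases between them. The TEAD letters lay 6 bp from the summit of list 1 and 8 bp from that of list 2, and the AP-1 letters 20 and 22 bp from them. The Ccn1 sequence held the TEAD letters once, 98 to 103 bp upstream of the start site, and they lay 10 bp from the summit of list 1 and 57 bp from that of list 2. The Ccn6 sequence held neither set of letters and overlapped no peak of either list. Motifs were searched on both strands of each window, from 250 bases before to 50 bases after a start. Of 32851 such windows of 300 bases in the table, 14.7% held GGAATG, 7.81% held TGANTCA and 1.26% held both. The CArG box bound by SRF was found in 1.63% of windows and in none of the Ccn1, Ccn6 and Gm40164 windows. Among the members, Ccn1 and Ccn6 (2 of 6) matched this table. Letters without a peak also occurred, as the windows of Fam229b, a gene near Ccn6, held GGAATG and overlapped no peak of either list. The letters are a description of the sequence, and binding at single bases was not measured.

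All 6 CCN genes had a site in each list, but the sites were spread unevenly. A site by the same rule was held by 58.2% of the 21631 protein-coding genes on the covered chromosomes in list 1 and by 59% in list 2. Ccn4 had the most sites, 9 in list 1 and 12 in list 2, followed by Ccn1 with 8 and 9 and Ccn2 with 6 and 5. Ccn5 had 4 in each list. Ccn3 and Ccn6 had 2 each in list 1 and 1 each in list 2, and the median protein-coding gene had 1. As many sites as Ccn4 were held by 1.96% of protein-coding genes in list 1 and 0.592% in list 2, and as many as Ccn1 by 2.75% and 1.86%. For Ccn2 these shares were 6.14% and 8.88%, and for Ccn5 14.8% and 13.9%. For Ccn3 and Ccn6 they were 37.4% in list 1 and 59% in list 2. Counted per 100 kb, Ccn1 had 7.77 and 8.74 sites, Ccn4 6.83 and 9.10, and Ccn2 5.81 and 4.84, against 1.85 and 0.927 for Ccn3 and 1.62 and 0.81 for Ccn6. At least as many per 100 kb were held by 0.407% and 0.153% of protein-coding genes for Ccn1, and by 0.643% and 0.0971% for Ccn4. Neighbouring genes share sites, so these shares describe an order and are not tests.

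**Figure D1:**
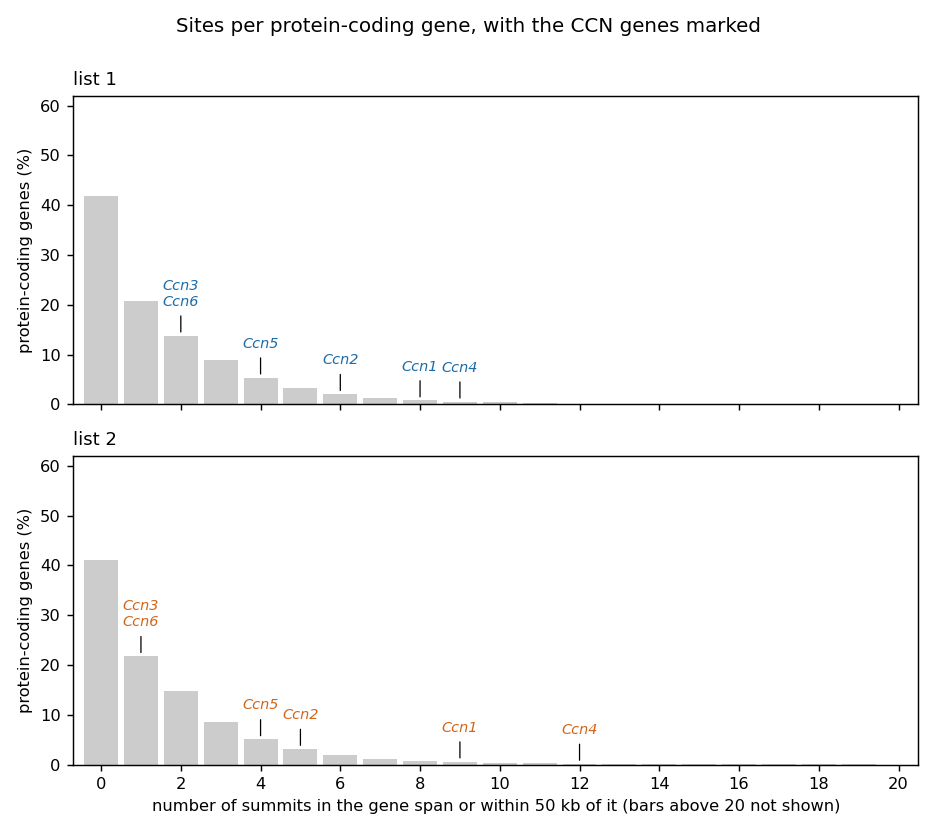
Number of summits in the span of a protein-coding gene or within 50 kb of it (x axis) against the percentage of protein-coding genes with that number (y axis), for list 1 above and list 2 below, with the CCN genes marked. Ccn1, Ccn2, Ccn4 and Ccn5 lie to the right of the median of 1 site in both lists, with Ccn4 farthest at 9 and 12 sites, while Ccn3 and Ccn6 have 2 sites in list 1 and 1 in list 2.

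The strength of a site is given as the authors' fold over input, the ChIP signal at the summit over the local background, with a 95% Poisson interval from the number of ChIP fragments there. The interval covers counting error in the ChIP library only. The CCN sites had a median fold of 6.61 in list 1 and 7.94 in list 2, against 6.24 and 6.83 over all peaks. They ranged from 3.30 to 57.0 in list 1 and from 3.06 to 75.8 in list 2. At least 10-fold were 9 of the 31 sites of list 1 (29.0%) and 12 of the 32 of list 2 (37.5%), where all peaks gave 22.9% and 28.1%. Such a site was present at Ccn1, Ccn2, Ccn4 and Ccn5, 4 of 6 members in both lists, against 24.4% of protein-coding genes in list 1 and 28.1% in list 2. Ccn3 and Ccn6 had none.

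**Figure D2:**
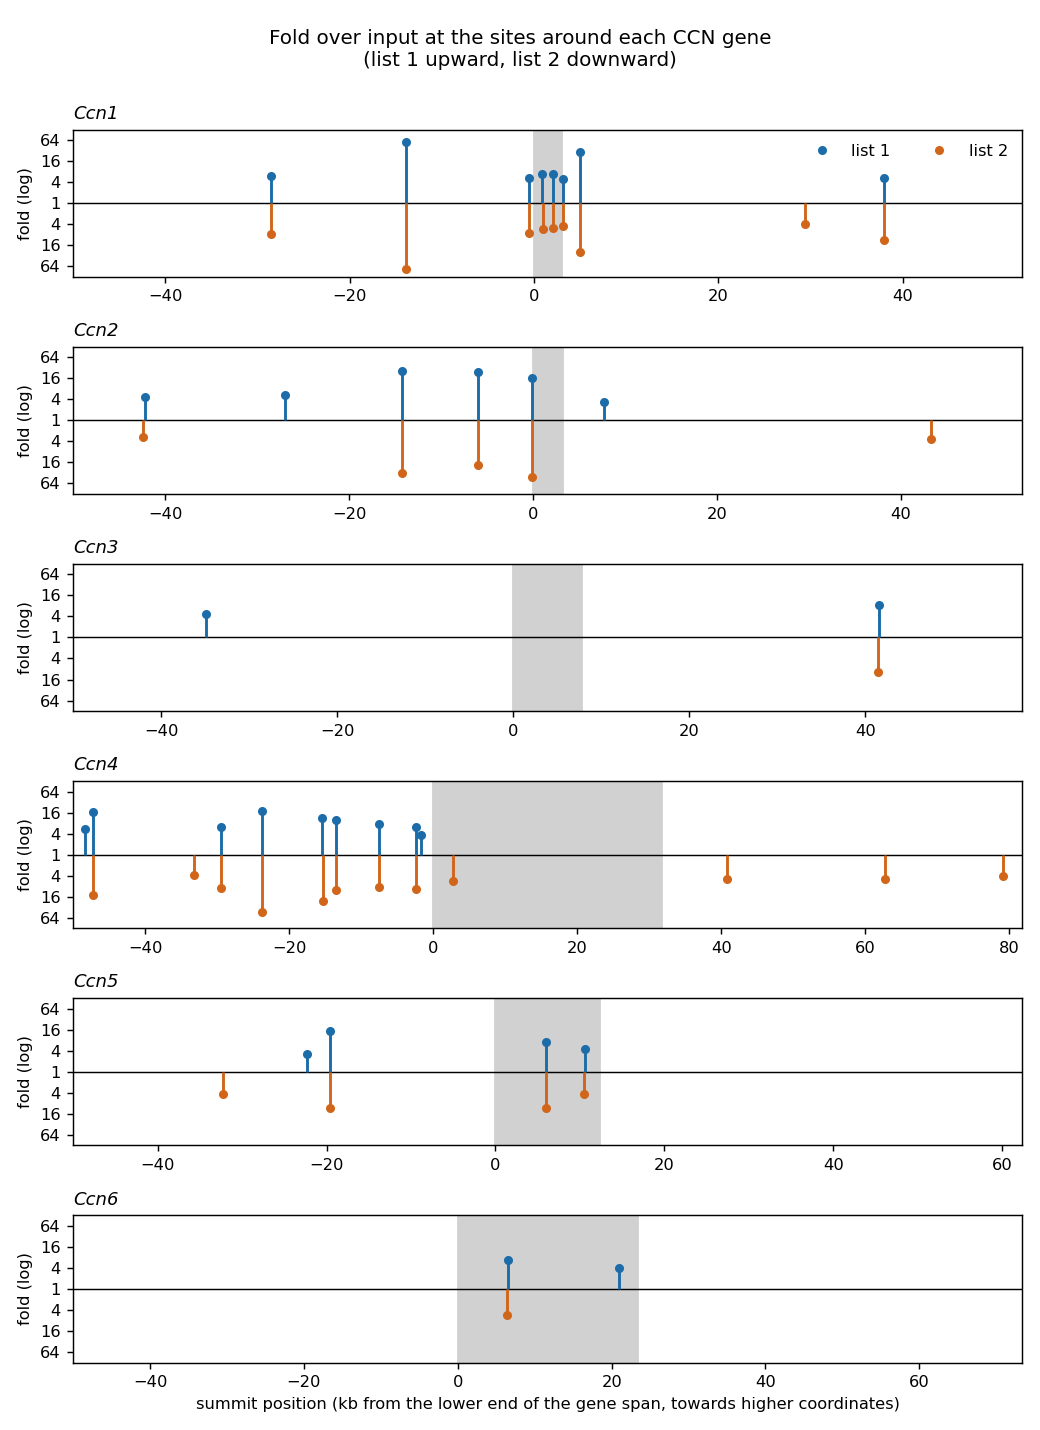
Summit positions of all CCN sites (x axis, kb from the lower end of each gene's span, shaded) and their fold over input (y axis, log scale, list 1 upward in blue and list 2 downward in orange). Each stem is 1 peak; the tallest stand 13.9 kb below Ccn1 at 57.0-fold and 75.8-fold, and most Ccn4 sites lie below the gene.

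Ccn1, which promotes cell adhesion and migration through integrins, carried the strongest CCN site of both lists. This peak ran from 145632657 to 145633484 on chromosome 3 in list 1 and from 145632737 to 145633407 in list 2. Its fold was 57.0 in list 1 (interval 49.1 to 66.0, 180 fragments) and 75.8 in list 2 (67.0 to 85.6, 261 fragments). It stood at rank 50 of list 1 and rank 44 of list 2 by −log10 q, and as high a fold was held by 0.31% of protein-coding genes in each list. Its summits, 145633078 and 145633080, were 2 bp apart. Ccn1 is transcribed towards lower coordinates, so this site lay 16.9 kb downstream of its start and 13.9 kb beyond its other end. No protein-coding gene was nearer, and the start of Gm40164 lay 105 and 107 bp away, in the sequence printed above.

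The next strongest Ccn1 site lay upstream, 1.95 kb from the start in list 1 and 1.97 kb in list 2, inside the span of the long noncoding RNA gene Gm17501. It was 29.0-fold over input in list 1 (23.7 to 35.1, 103 fragments) and 25.2-fold in list 2 (20.6 to 30.5, 102 fragments). The 2 values lie within each other's intervals. At the start of Ccn1 itself the signal was far weaker. The peak there, 145650052 to 145650322 in list 1 and 145650057 to 145650493 in list 2, had its summit 113 and 160 bp upstream of the start. It was 4.77-fold (2.64 to 8.06, 12 fragments) and 4.56-fold (2.58 to 7.57, 13 fragments) over input. By −log10 q it stood 77.1% of the way down list 1 and 83.1% down list 2, with tied peaks not counted as above it. This is the peak over the Ccn1 sequence printed above.

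Ccn1 also had 2 weak sites inside its span and 1 just beyond its far end, in both lists. The inner ones were 6.98-fold and 5.16-fold (list 1 and list 2) at 0.956 and 0.935 kb downstream of the start, and 6.61-fold and 5.53-fold at 2.09 and 2.02 kb. The one beyond the end, 559 and 538 bp from it, was 5.15-fold (3.28 to 7.75) and 7.31-fold (5.18 to 10.05). A site 35.0 kb upstream of the start, at 145684838 to 145685247 in list 1 and 145684641 to 145685615 in list 2, was 5.35-fold (3.41 to 8.05, 21 fragments) and 11.1-fold (7.75 to 15.3, 34 fragments). The remaining sites were 6.13-fold and 7.55-fold, nearer to Znhit6 than to Ccn1, and 4.07-fold in list 2 only. All 8 Ccn1 sites of list 1 were also called in list 2.

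Ccn2, a profibrotic matrix signal, had 3 strong sites in a row, all within 14.2 kb of the lower end of its span on chromosome 10. Ccn2 is known to be transcribed from that end. The first, 24594940 to 24595504 in list 1 and 24594986 to 24595542 in list 2, overlapped the end of the span, with summits 105 and 75 bp outside it. It was 15.7-fold over input in list 1 (12.5 to 19.5, 80 fragments) and 42.2-fold in list 2 (35.6 to 49.6, 144 fragments), and these intervals do not overlap. The local background was 4.15 fragments in list 1 and 2.44 in list 2. The fold ratio of list 2 over list 1, 2.68, thus joined a fragment ratio of 1.80 and a background ratio of 0.587, where all pairs had medians of 1.15 and 1.08. At the start of Ccn2 the fold was thus 15.7 and 42.2, where at the start of Ccn1 it was 4.77 and 4.56.

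The second Ccn2 site, 24589060 to 24589977 in list 1, lay 5.99 kb from the span. It was 24.9-fold (20.3 to 30.1, 102 fragments) over input in list 1 and 19.6-fold (15.9 to 23.8, 98 fragments) in list 2. The third, 24580741 to 24581720 in list 1, lay 14.2 kb away. It was 25.9-fold (21.5 to 31.0, 119 fragments) in list 1 and 31.5-fold (26.5 to 37.3, 133 fragments) in list 2. Both pairs of intervals overlap, and summits of the lists were 9 and 1 bp apart. The strongest Ccn2 site by fold and −log10 q was the third in list 1 and the first in list 2. All 3 summits lay inside the span of the long noncoding RNA gene Gm15270, which starts inside Ccn2 and runs towards lower coordinates.

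The other Ccn2 sites were weak. A site 42.2 and 42.4 kb below the gene was called in both lists at 4.77-fold and 3.06-fold, with summits 277 bp apart, the widest gap of any CCN pair. Sites of 5.16-fold and 3.41-fold were called in list 1 only, and 1 of 3.49-fold, inside Enpp1, in list 2 only. No summit lay inside the span of Ccn2 in either list.

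Ccn4, also known as WNT1-inducible signalling pathway protein 1, had its sites on one side. All 9 sites of list 1 and 8 of the 12 of list 2 lay below the lower end of its span, on chromosome 15, and within 48.3 kb of it. The strongest, 66867207 to 66867942 in list 1 and 66867133 to 66867988 in list 2, was 17.5-fold over input in list 1 (14.1 to 21.5, 89 fragments) and 44.3-fold in list 2 (38.0 to 51.4, 172 fragments). The intervals do not overlap. Its local background was 4.15 and 2.90 fragments, so that a fragment ratio of 1.93 and a background ratio of 0.70 stood behind a fold ratio of 2.54. It lay 23.8 kb from Ccn4 and 16.8 kb from Tg, the thyroglobulin gene.

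A site 15.4 kb below Ccn4, 66875638 to 66876206 in list 1 and 66875717 to 66876262 in list 2, was 11.2-fold (8.44 to 14.5, 54 fragments) and 21.7-fold (17.2 to 27.2, 75 fragments). These intervals do not overlap either. The site next to it, 13.4 kb from the gene, was 9.60-fold (6.89 to 13.03, 39 fragments) and 10.5-fold (7.82 to 13.9, 48 fragments), at 66877542 to 66878021 in list 1 and 66877687 to 66878174 in list 2. The other Ccn4 site above 10-fold lay 47.2 kb from the gene but inside Tg, at 66843700 to 66844563 in list 1 and 66843680 to 66844490 in list 2. It was 16.9-fold (12.9 to 21.6, 60 fragments) and 14.5-fold (11.5 to 18.2, 74 fragments). Values at this site were within each other's intervals, while those of the 23.8 kb and 15.4 kb sites were higher in list 2. The 15.4 kb and 13.4 kb sites had their summits inside Gm46514, a gene not annotated as protein-coding. So did the sites nearer to Ccn4 below its span.

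A site 29.5 kb below Ccn4 was 6.13-fold and 9.05-fold, and 1 of 5.29-fold inside Tg was called in list 1 only. Nearer to Ccn4 the sites were also weaker than 10-fold. Those 7.59 and 2.37 kb from the gene in list 1 were 7.44-fold and 6.28-fold, and their partners in list 2 were 8.32-fold and 9.88-fold. List 2 had a peak of 1350 bp there, 66888430 to 66889779, where list 1 had 2 narrower peaks, the second of 3.74-fold. The 5 Ccn4 sites called in list 2 only were between 3.80-fold and 5.67-fold, and 1 of them lay inside the gene. Of the 12 sites of list 2, 7 were nearer to Tg or Ndrg1, a stress-responsive gene above Ccn4, than to Ccn4, as were 4 of the 9 of list 1.

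Ccn5, the member without the C-terminal domain, had 1 site above 10-fold in list 1 and 2 in list 2. The strongest, on chromosome 2 at 163800931 to 163801717 in list 1 and 163800693 to 163801748 in list 2, lay 19.6 kb below the span. It was 14.3-fold (10.7 to 18.9, 49 fragments) and 11.1-fold (7.87 to 15.1, 37 fragments). A site inside the gene, 163826629 to 163826999 in list 1 and 163826626 to 163826968 in list 2, was 7.24-fold (4.78 to 10.6, 25 fragments) and 10.8-fold (7.41 to 15.3, 30 fragments). The intervals of the lists overlap at both. A further intragenic site was 4.45-fold and 4.19-fold, and each list had 1 weak site of its own, of 3.30-fold and 4.19-fold.

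Ccn3 and Ccn6 had the fewest sites of the members, and none of at least 10-fold. The strongest Ccn3 site, on chromosome 15 at 54787257 to 54787553 in list 1 and 54787028 to 54787608 in list 2, lay 33.7 and 33.6 kb above the gene. It was 8.68-fold (5.83 to 12.5) in list 1 and 9.77-fold (6.56 to 14.1) in list 2, with 27 fragments in each. The other Ccn3 site, in list 1 only, was 4.57-fold. No summit lay within 10 kb of Ccn3. The strongest Ccn6 site, on chromosome 10 at 39157184 to 39157721 in list 1 and 39157267 to 39157571 in list 2, lay inside the gene. Its summits were 6.26 and 6.38 kb downstream of the start used here, which lies inside the span. From the upper end of the span they were 16.8 and 17.0 kb away. It was 6.71-fold (4.12 to 10.4, 18 fragments) and 5.58-fold (3.33 to 8.85, 16 fragments). A second site inside Ccn6, in list 1 only, was 3.89-fold. As high a top fold was held by 30.1% and 29% of protein-coding genes for Ccn3, and by 39.2% and 49.1% for Ccn6.

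Summits within 1 kb of an end were found at Ccn1 (4 in each list) and Ccn2 (1 in each list) and at no other member, and 6 summits in each list lay inside a member's span. The same counts over all protein-coding genes were not made, so these numbers do not set the CCN genes apart. Except at Ccn2 in list 2, the highest fold of each member lay more than 1 kb from both of its ends.

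The sites of the lists were then compared. Joined where they overlapped, they made 38 distinct loci, of which 24 were called in both lists, 6 in list 1 only and 8 in list 2 only. Of the CCN peaks of list 1, 25 of 31 overlapped a list 2 peak by at least 1 bp (80.6%), and of those of list 2, 24 of 32 overlapped a list 1 peak (75.0%), against 70.9% and 71.4% of all peaks. The peaks found in 1 list only were weak, at 3.30-fold to 5.29-fold and 8 to 23 fragments in list 1 and 3.49-fold to 5.67-fold and 11 to 21 fragments in list 2. Every CCN site above 10-fold in either list was called in both. How often all peaks of that strength were called in both was not computed, so this is not a trait of the CCN sites. At the 24 paired sites the median distance between summits was 24 bp, and 22 pairs lay within 100 bp. Over all 15015 pairs of the lists the median was 25 bp, and 13158 pairs lay within 100 bp.

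The fold was higher in list 2 at 14 of the 24 pairs and higher in list 1 at 10, with a median ratio of list 2 over list 1 of 1.12, against 1.11 over all 15015 pairs. A fold at least 2 times as high in list 2 was seen at 3 CCN pairs, where 5.81% of all pairs reached it. They were the Ccn2 site at the lower end of its span (ratio 2.68), the Ccn4 site 23.8 kb from the gene (2.54) and the Ccn1 site 35.0 kb upstream (2.07). After division by the median ratio over all pairs, 2 CCN pairs (3.38% of all pairs) reached it, without the Ccn1 site. By the ratio of fragments alone, over its own median, 0 CCN pairs (1.55% of all pairs) did. No CCN pair was at least 2 times as high in list 1, as 1.9% of all pairs were. The counting intervals did not overlap at 4 CCN pairs, against 8.79% of all pairs, namely the first 2 of these, the Ccn4 site 15.4 kb from the gene and the strongest Ccn1 site. With 1 library behind each list, none of these differences could be set against a spread between replicates.

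**Figure D3:**
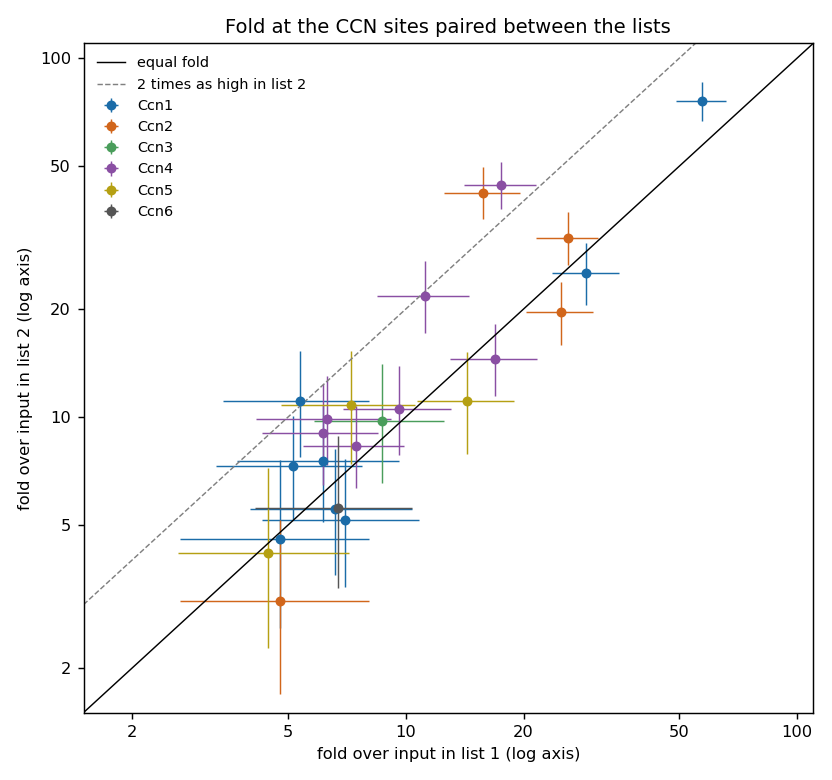
Fold over input of the 24 CCN sites paired between the lists, list 1 on the x axis and list 2 on the y axis, both on log scales, with 95% Poisson intervals of the fragment numbers and 1 colour per gene. Most points lie along the line of equal fold, and 1 Ccn1, 1 Ccn2 and 1 Ccn4 site stand above the dashed line at 2 times as high in list 2. The intervals of the lists do not overlap each other at these Ccn2 and Ccn4 sites, and they overlap at the Ccn1 site.

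Other targets of YAP and TEAD give a setting for these values. Of 20 such genes 19 had a site by the same rule in list 1 and 18 in list 2, against 58.2% and 59% of protein-coding genes. Their median was 5 sites in each list, where that of protein-coding genes was 1. A site of at least 10-fold was present at 15 and 16 of them, against 24.4% and 28.1% of protein-coding genes. Site numbers of the 20 genes were not scaled by gene length, and longer genes have wider windows. The highest −log10 q in list 1 belonged to sites at Lats2, a kinase of the Hippo pathway (47.9-fold and 77.7-fold), Amotl2, which binds YAP (55.1-fold and 74.7-fold), and Tgfb2, a transforming growth factor (44.8-fold and 53.0-fold). By −log10 q in list 1 the strongest Ccn1 site (266) stood below Lats2 (389) and Amotl2 (276) and above Tgfb2 (169.9). In list 2 the Ccn1 site (415) stood below Lats2 (516) and above Amotl2 (345) and Tgfb2 (228). By fold it stood above Lats2, Amotl2 and Tgfb2 in list 1 (57.0), and below Lats2 only in list 2 (75.8). Ccn3 and Ccn6, unlike most of the 20 genes but like most protein-coding genes, had no site of at least 10-fold.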

How the data were processed

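TEAD1 ChIP and input libraries were made from cardiac fibroblasts, 1 each for OE-NC and OE-TEAD1. Reads were trimmed with Trimmomatic 0.33, aligned with Bowtie 1.1.2 and compared with input by MACS2, per the submitters' processing notes. No source used here gives the MACS2 settings or library sizes. The 2 lists had no header. Each peak has the authors' fold (a ratio of ChIP pileup to local background, 1 added to both), −log10 p, −log10 q as deposited, and a deposited score, which is 10 times the −log10 q without its decimals for all but 2 peaks.

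The notes name mm39. Coordinates were read as GRCm38, where summits crowded at RefSeq starts (1156 of list 1 within 1 kb of the nearest, 373 at 10 to 11 kb). They are counted from 1.

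Fragments and background at each summit were solved from fold and p with scipy 1.17.1. For 99.99% of the peaks of either list this gave a whole fragment number (tolerance 0.02). The solver was tested on simulated data. Peaks were paired where each was the other's best overlap. No test was run, since each list rests on 1 library. Named were the strongest site of each member, sites within 1 kb of an end or at 10-fold or more, and 3 other targets. Members and lists were chosen with earlier results of these data known. Alternatives were other windows, thresholds, overlaps, scalings and motif lengths. Exons and introns were not analysed here, nor was strand for members outside the promoter table.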

Additional observations from a re-analysis of the deposited data

How the results depend on the processing

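Of 38 values recomputed under alternatives, 32 stayed within 1.5 times the count, or within the 95% binomial interval, of the value reported. With a window of 10 kb the CCN sites were 15 in list 1 and 14 in list 2, and Ccn3 had none. Ccn1 then had the most sites, 5 in each list, where Ccn4 had 3 in list 1 and 4 in list 2. With the 5000 strongest peaks of each list the CCN sites were 11 and 12, and Ccn3 and Ccn6 had none. Ccn4 had the most sites there (5 and 6), as it did with a window of 100 kb and with a −log10 q of at least 5. With a −log10 q of at least 5 in both lists, 87.5% of the CCN sites of list 2 overlapped list 1, and 87.5% of those of list 1 overlapped list 2. The share over all peaks at this threshold was not computed. By the ratio of fragments over its median across all pairs, 0 CCN pairs were at least 2 times as high in list 2 (1.55% of all pairs), and by the fold ratio over its median 2 were. The narrower window and the stricter thresholds keep fewer peaks as CCN sites, and the ratio of fragments leaves out the background. Why single values moved was not tested. No paired analysis was possible because each group held 1 library and the lists are tied to no sample. A weak site of 12 fragments at 4.77-fold has an interval from 2.64 to 8.06, so weak sites called in 1 list only cannot be told from sites missed at this depth.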

Other observations

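The letters seen at the strongest Ccn1 site were counted over the promoter windows of the reference table, as a description with no test. Of 304 windows that held a summit of list 1, 44.7% held GGAATG, against 14.4% of windows without one, and in list 2 the shares were 45.3% of 276 windows and 14.4%. TGANTCA was held by 19.4% of windows with a summit and 7.7% of the others in list 1, and by 21% and 7.7% in list 2. Both sets of letters, as in the Gm40164 window below Ccn1, were held by 7.57% and 1.2% in list 1 and by 7.61% and 1.21% in list 2. Windows of alternative starts of a gene overlap and share sequence.

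Of the long noncoding RNA genes around the CCN genes, Gm36089 below Ccn2 had a peak over its window in both lists and a CArG box in that window, with no GGAATG. This peak is the weak Ccn2 site of 4.77-fold in list 1 and 3.06-fold in list 2. By −log10 q it stood 77.1% of the way down list 1 and 98.3% down list 2, with tied peaks not counted as above it. The Gm17501 window, on the other strand from Ccn1, overlaps the Ccn1 window and holds the same TEAD letters.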
